A study of Mus musculus with 4 samples.

Results

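The genes encoding the pore-forming subunits of the AMPA receptor (Gria1, Gria2, Gria3 and Gria4) and 5 of its auxiliary proteins (Cnih2, Cnih3, Shisa6, Shisa9 and Gsg1l) were followed in hippocampal RNA. They were chosen by name, with earlier results of these data known, and make up 9 of the 16148 genes obtained by summing the deposited RefSeq transcripts. These 9 genes are represented by 29 transcripts, 25 coding (identifiers starting NM_) and 4 non-coding (NR_), and all 9 genes and 29 transcripts passed the filter on low signal.

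The series set Tas1r3 knockout mice (KO-WD) against wild-type mice (WT-WD), with 2 libraries of each genotype, and both genotypes were fed a western diet for 18 weeks. Tas1r3 encodes a shared subunit of the sweet and umami taste receptors, and the title of the series places it in cognitive impairment of diet-induced obese mice. Total RNA of the hippocampus was sequenced from Ion Total RNA-Seq libraries. The sources used here give neither the knockout allele and strain nor the age, sex and number of the animals. They also do not state that each library came from a separate animal, so the spread behind every p-value is that of these libraries and may be technical. A control diet was not analysed here, so every difference is one between genotypes on the same diet.

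AMPA receptors are tetramers that carry most fast excitatory transmission in the brain, and changes in their number and composition at synapses underlie much of hippocampal plasticity. The subunit mix sets calcium permeability, with GluA2 making receptors impermeable to calcium once its RNA is edited, and an alternative pair of exons named flip and flop sets how fast the receptor desensitizes. Auxiliary proteins of several families travel with the subunits and tune their export, synaptic anchoring and gating.

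Signal is given in the authors' normalized units, summed over the transcripts of a gene, with replicate 1 before replicate 2 of each genotype. The low values put the depth at about 11596036 and 15959807 reads for WT-WD and 13510833 and 12942075 reads for KO-WD. The member gene with the fewest reads in any library had an estimated 468 reads, and the member transcript with the fewest had 24.1. Tas1r3 itself measured 16.1 and 15.9 units in WT-WD and 0.887 and 1.85 units in KO-WD (adjusted p = 0.0813, not past the threshold of 0.05). Hippocampal markers were present in every library, with Prox1 of the dentate gyrus at 182 to 224 units, while the thalamic marker Tcf7l2 and the striatal marker Adora2a lay between 1.68 and 6.16 units. The 3 markers of excitatory neurons summed to 10447 and 9946 units in WT-WD and 10316 and 11774 units in KO-WD, and these sums overlapped. In bulk tissue, fewer cells of a type and less RNA per cell cannot be told apart.

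None of the 9 genes passed the test between genotypes at an adjusted p under 0.05 (limma, Benjamini-Hochberg adjustment over 15707 genes). Over all genes tested, 10 passed (18 to 93 when 1 library was left out), a share of 0.0637%. At an unadjusted p under 0.05, 1 of the 9 members passed, Gsg1l, where 5.28% of all genes did. The genotypes did not overlap for Gria1 (KO-WD higher), Shisa9 and Gsg1l (KO-WD lower). That is 3 of 9 members (33.3%), near the 36.3% of all genes tested. Of the 9 differences, 4 were above 0 and 5 below, with a median log2 difference (KO-WD minus WT-WD) of -0.062, where the median over all genes was 0.00025. With coding transcripts alone summed, 0 of the 9 passed (limma, 0.00685% of all genes) and 2, Shisa9 and Gsg1l, had an unadjusted p under 0.05 (6.29% of all genes). The 95% intervals reached 0.25 to 0.37 on the log2 scale to either side of the difference, and smaller differences could not be resolved with 2 libraries per genotype. These intervals are not adjusted for the number of genes, so the limit of the adjusted test is wider. Gsg1l, with a log2 difference of -0.49, did not pass it (limma, adjusted p = 0.848).

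Markers of other cell types differed across the same libraries, none past the adjusted test (lowest adjusted p = 0.457). All 5 oligodendrocyte markers were lower in KO-WD, with summed signal of 13201 and 14736 units in WT-WD and 11364 and 10471 in KO-WD, as were all 4 markers of their precursors, with 539.7 and 557 units and 437 and 429 units. All 6 choroid plexus markers had log2 differences above 0, with sums of 3509 and 1387 units in WT-WD and 6982 and 3486 units in KO-WD. These sums overlapped, as did Ttr and Folr1, while Kl, Otx2, Prlr and Clic6 did not. Of 5 astrocyte markers 4 were lower, with sums of 2714 and 2982 units and 2438 and 2398 units. No marker was at 0 in any library, and the part of these cell types in the members' values was not tested.

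**Figure D1:**
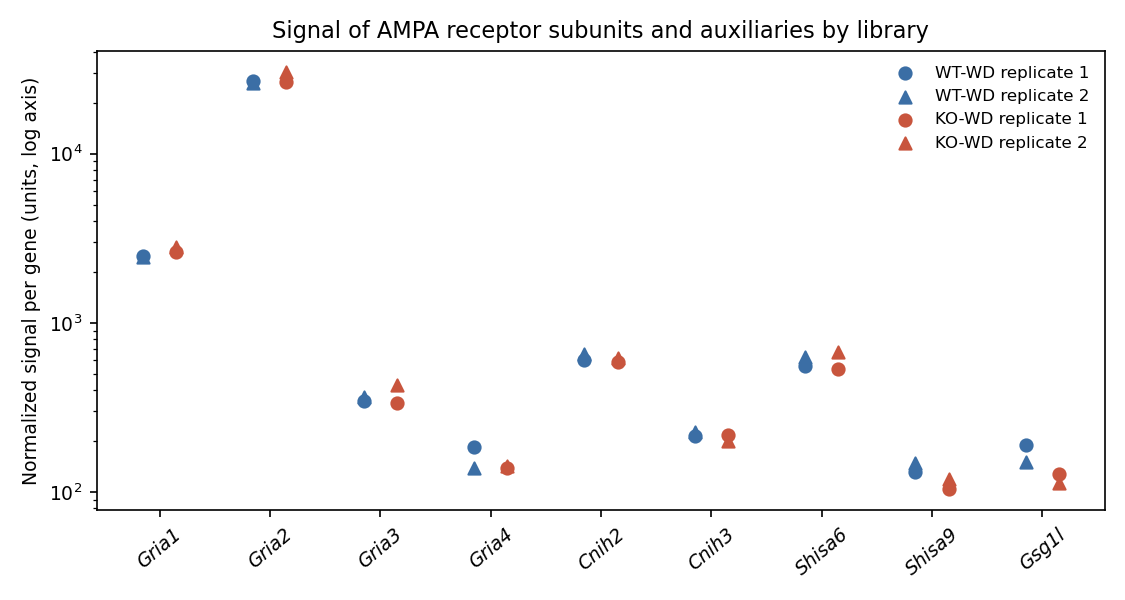
Normalized signal (units, log axis) of the 9 genes in each of the 4 libraries, blue for WT-WD and red for KO-WD, circles for replicate 1 and triangles for replicate 2. Gria2 lies far above the rest, and the 2 red points lie below both blue points for Shisa9 and Gsg1l.

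Among the subunits, Gria1 (chromosome 11) encodes GluA1, the subunit whose delivery to synapses is central to long-term potentiation. It measured 2494 and 2454 units in WT-WD and 2629 and 2792 units in KO-WD. Both KO-WD libraries were the higher ones, though by little (log2 difference 0.13, SE 0.11, adjusted p = 0.911). The 95% interval of the difference ran from -0.12 to 0.38.

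Gria2 (chromosome 3) encodes GluA2, the subunit that RNA editing renders impermeable to calcium. Its summed signal was 26904 and 26197 units in WT-WD and 26361 and 30478 units in KO-WD (log2 difference 0.094, SE 0.14, adjusted p = 0.949). Replicate 2 of KO-WD was the highest library, and the other KO-WD library lay between the WT-WD libraries. Without KO-WD replicate 2 the log2 difference was -0.010.

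Gria3 (chromosome X) encodes GluA3, which pairs mainly with GluA2. It gave 344 and 363 units in WT-WD and 335 and 428 units in KO-WD (log2 difference 0.10, SE 0.14, adjusted p = 0.947). The KO-WD libraries held both the lowest and the highest value, and without replicate 2 of KO-WD the log2 difference was -0.079.

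Gria4 (chromosome 9) encodes GluA4, which in the adult hippocampus is found mainly in interneurons. It gave 185 and 139 units in WT-WD and 138 and 142 units in KO-WD (log2 difference -0.20, SE 0.16, adjusted p = 0.911). Replicate 1 of WT-WD stood above the other 3 libraries, which lay within a few units of each other, and without it the log2 difference was 0.011. Of 6 interneuron markers 2 had log2 differences above 0 and 4 below, with sums of 1194 and 1233 units in WT-WD and 1283 and 1044 units in KO-WD that overlapped, and their part in the Gria4 values was not tested.

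The split of subunit signal depended on whether non-coding transcripts were counted. Over all transcripts, Gria2 held 89.5% to 90.1% of the summed signal of the 4 subunit genes, Gria1 8.25% to 8.92%, Gria3 1.14% to 1.26% and Gria4 0.419% to 0.619%. Over coding transcripts alone, Gria1 held the most, with 61.3% to 65.5%, followed by Gria2 with 23.5% to 27.6%, Gria3 with 7.52% to 7.99% and Gria4 with 3.11% to 4.64%. Dividing the coding signal by coding length left Gria1 at 62.2% to 65.8% and Gria2 at 23.0% to 27.1%. The 4 subunits kept their order in every library on that scale.

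Over all transcripts, the shares differed little between genotypes. The Gria4 share of the summed signal was 0.619% and 0.476% in WT-WD and 0.469% and 0.419% in KO-WD, so the groups did not overlap (two-sided exact permutation p = 0.333, the smallest that 2 against 2 libraries allow). The difference of -0.104 percentage points shrank to -0.0325 without WT-WD replicate 1. The shares of Gria1, Gria2 and Gria3 overlapped between genotypes on this scale. Per coding length, the Gria3 share was 7.27% and 7.38% in WT-WD and 6.77% and 6.88% in KO-WD. The Gria4 share was 5.86% and 4.73% in WT-WD and 4.43% and 3.54% in KO-WD. Neither overlapped (two-sided exact permutation p = 0.333 for each, the smallest possible), while the shares of Gria1 and Gria2 did. Per transcript length, the shares of Gria3 and Gria4 again did not overlap and that of Gria2 did. The Gria1 share did not overlap on that scale, with 64.5% and 63.0% in WT-WD and 68.0% and 65.4% in KO-WD. Gria3 coding signal without a length is left out on these scales, more of it in KO-WD. Transcripts with a length held 97.6% and 93.3% of it in WT-WD and 91.0% and 85.8% in KO-WD. Over all coding transcripts the Gria3 shares overlapped, with 7.52% and 7.99% in WT-WD and 7.54% and 7.97% in KO-WD. Those of Gria4 did not, with 4.64% and 3.50% in WT-WD and 3.44% and 3.11% in KO-WD. The coding signal of Gria1 relative to that of Gria2 was 2.47 and 2.32 in WT-WD and 2.79 and 2.22 in KO-WD, and the KO-WD libraries spanned the WT-WD ones. This ratio leaves out the non-coding transcripts, which held 95.9% to 96.4% of Gria2 signal. It depends on how reads were divided between transcripts and is not a measure of the subunit mix.

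**Figure D2:**
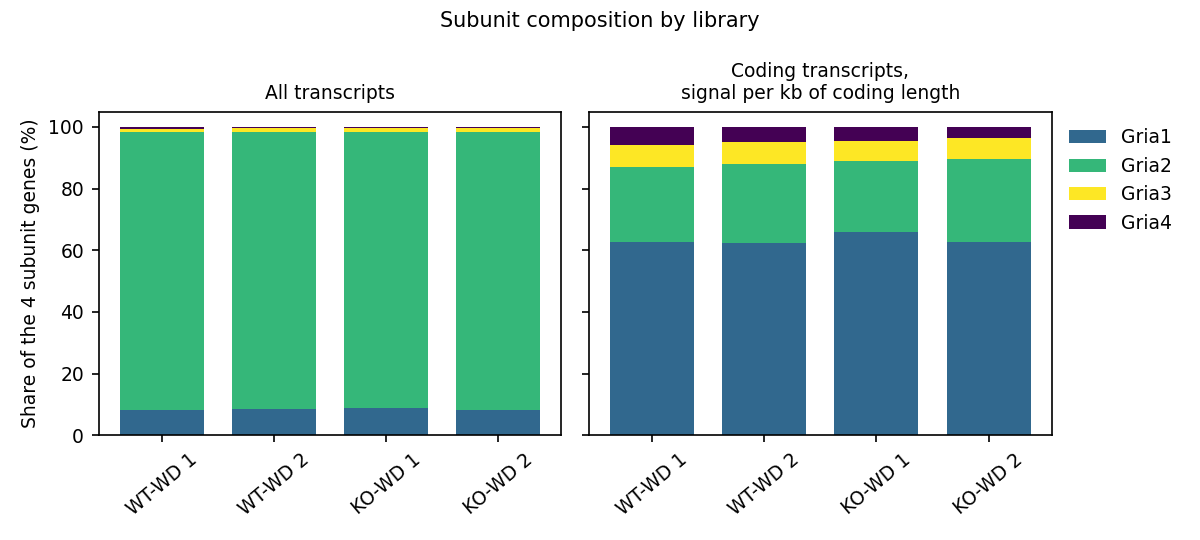
Share (%) of each subunit gene in the summed signal of Gria1 to Gria4, per library, over all transcripts (left) and over coding transcripts after division by coding length (right). Gria2 fills 89.5% to 90.1% of each bar on the left, and Gria1 is the largest segment of each bar on the right.

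Nearly all Gria2 signal was assigned to its 3 non-coding transcripts. Their share of the gene was 96.3% and 96.0% in WT-WD and 96.4% and 95.9% in KO-WD. Among the 906 tested genes with transcripts of both kinds, 102 (11.3%) had a higher mean non-coding share than Gria2, and the median share was 51.9%. Gria3, with 1 non-coding transcript, held 9.55% to 15.1% in it. How the authors divided reads between overlapping transcripts is not given in the sources used here, so the values of single transcripts carry that uncertainty.

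The largest of these, NR_152149, ranked between 4 and 6 of all 30108 transcripts by signal in every library and held 0.499 to 0.684% of all signal. It measured 17659 and 14922 units in WT-WD and 20165 and 20476 units in KO-WD (log2 difference 0.32, SE 0.13, adjusted p = 0.883, unadjusted p = 0.0617). NR_152148 went the other way, with 6463 and 8046 units in WT-WD and 3766 and 5879.6 units in KO-WD (log2 difference -0.62, SE 0.26, adjusted p = 0.883, unadjusted p = 0.0721). For each of the pair the genotypes did not overlap, in opposite directions. The NR_152149 share of the gene was 65.6% and 57.0% in WT-WD and 76.5% and 67.2% in KO-WD, and that of NR_152148 was 24.0% and 30.7% in WT-WD and 14.3% and 19.3% in KO-WD (two-sided exact permutation p = 0.333 for each, the smallest possible). The mean NR_152149 share difference of 10.5 percentage points shrank to 6.20 when WT-WD replicate 2 was left out and to 5.88 when KO-WD replicate 1 was. The sum of the pair overlapped between genotypes, with 24121 and 22968 units in WT-WD and 23931 and 26356 units in KO-WD. The remaining non-coding transcript, NR_152147, gave 1775 and 2169 units and 1486 and 2865 units, and these overlapped.

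The 5 coding transcripts of Gria2 together gave 1008 and 1059 units in WT-WD and 944 and 1257 units in KO-WD. Most of this was NM_001039195, with 66.8% and 59.1% of the coding signal in WT-WD and 67.7% and 69.0% in KO-WD. NM_001083806, whose linked GENCODE model carries the flip exon, held 20.2% and 30.2% in WT-WD and 18.2% and 19.2% in KO-WD. Both shares were separated between genotypes, the first higher and the second lower in KO-WD, with replicate 2 of WT-WD furthest out in each. The two-sided exact permutation p was 0.333 for each, the smallest possible, and shares of the same total are not independent. In units both overlapped. NM_001039195 measured 673 and 625 units in WT-WD and 639 and 867 units in KO-WD, and NM_001083806 measured 203 and 320 units and 172 and 242 units. NM_013540 measured 89.5 and 76.8 units in WT-WD and 120.3 and 109 units in KO-WD (log2 difference 0.46, SE 0.17, adjusted p = 0.866, unadjusted p = 0.0456). It links to the same GENCODE model as NM_001039195, so the exon of neither could be assigned. NM_001357924 (5.33 to 25.7 units) and NM_001357927 (7.43 to 19.3 units) were the lowest of the gene.

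Through GENCODE models, flip and flop transcripts could be told apart for Gria1, where all 3 transcripts were assigned, and for Gria4, where 1 of 3 carries neither exon. The flip and flop exons of both genes are shown because the transcript shares that follow turn on them. They are from GENCODE release M21 (build GRCm38, not the mm39 named for the deposited values), 5′ to 3′ on the coding strand, 115 bases each, and capitals mark the bases that differ between flip and flop of the same gene. In Gria1, flip lies at chr11:57310608-57310722 and flop at chr11:57309769-57309883 on the plus strand, and 36 bases differ. In Gria4, flip lies at chr9:4427030-4427144 and flop at chr9:4432773-4432887 on the minus strand, and 31 bases differ. All 4 are coding exons.
Gria1 flip: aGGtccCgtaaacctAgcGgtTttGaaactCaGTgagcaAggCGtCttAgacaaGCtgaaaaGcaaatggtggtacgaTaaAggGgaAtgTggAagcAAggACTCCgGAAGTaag
Gria1 flop: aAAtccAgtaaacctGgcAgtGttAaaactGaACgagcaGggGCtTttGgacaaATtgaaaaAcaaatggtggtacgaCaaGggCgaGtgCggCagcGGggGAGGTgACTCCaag
Gria4 flip: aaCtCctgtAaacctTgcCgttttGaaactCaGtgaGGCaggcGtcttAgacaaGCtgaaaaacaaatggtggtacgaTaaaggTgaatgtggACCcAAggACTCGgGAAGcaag
Gria4 flop: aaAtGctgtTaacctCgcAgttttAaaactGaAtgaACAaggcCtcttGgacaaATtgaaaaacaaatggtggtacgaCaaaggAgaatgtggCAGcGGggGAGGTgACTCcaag

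In Gria1, 2 transcripts carry the flip exon, NM_001113325 and NM_001252403, and NM_008165 carries the flop exon. NM_001113325 measured 386 and 366 units in WT-WD and 384 and 516 units in KO-WD. NM_001252403, whose model has a shorter coding sequence (2514 against 2721 bases), measured 1068 and 1128 units and 1269 and 1206 units, and was the member of the pair in which both KO-WD libraries were the higher (log2 difference 0.17, SE 0.11, adjusted p = 0.935). The flop transcript NM_008165 measured 1039.7 and 961 units in WT-WD and 976 and 1069.9 units in KO-WD and overlapped (log2 difference 0.032, SE 0.12, adjusted p = 0.998).

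The summed flip signal of Gria1 was thus 1454 and 1494 units in WT-WD and 1653 and 1722 units in KO-WD. The flip share was 58.3% and 60.9% in WT-WD and 62.9% and 61.7% in KO-WD, a mean difference of 2.69 percentage points (two-sided exact permutation p = 0.333, the smallest possible). The KO-WD shares were the higher ones, the nearest pair being less than 1 percentage point apart, and leaving out any library kept the difference between 1.42 and 3.96 percentage points.

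In Gria4, NM_019691 carries flip, NM_001113180 carries flop, and the short model of NM_001113181 carries neither. NM_019691 measured 11.9 and 33.3 units in WT-WD and 19.1 and 18.1 units in KO-WD. NM_001113180 measured 123 and 55.8 units and 77.2 and 104 units. The flip share of flip plus flop was 8.85% and 37.4% in WT-WD and 19.8% and 14.8% in KO-WD, so the WT-WD replicates lay further apart than the genotypes. Flop exceeded flip in all 4 libraries, the opposite order to Gria1. NM_001113181 measured 50.4 and 49.7 units in WT-WD and 41.7 and 19.4 units in KO-WD, and replicate 2 of KO-WD stood lowest (log2 difference -0.79, SE 0.42, adjusted p = 0.920).

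In Gria3, NM_001290451 (flop) held 36.7% to 43.3% of the gene and NM_016886 held 26.8% to 32.6%. NM_016886 and NM_001281929 (8.92% to 12.1%) link to the same GENCODE model, so their exon could not be assigned. NR_104053, whose linked model holds both exons, measured 44.1 and 46.4 units in WT-WD and 32.0 and 64.6 units in KO-WD. NM_001358361, with no linked model, had 7.07 and 21.1 units in WT-WD and 27.2 and 51.4 units in KO-WD. Both KO-WD libraries were above both WT-WD libraries, and the WT-WD replicates also lay far apart (log2 difference 1.52, SE 0.63, adjusted p = 0.883).

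**Figure D3:**
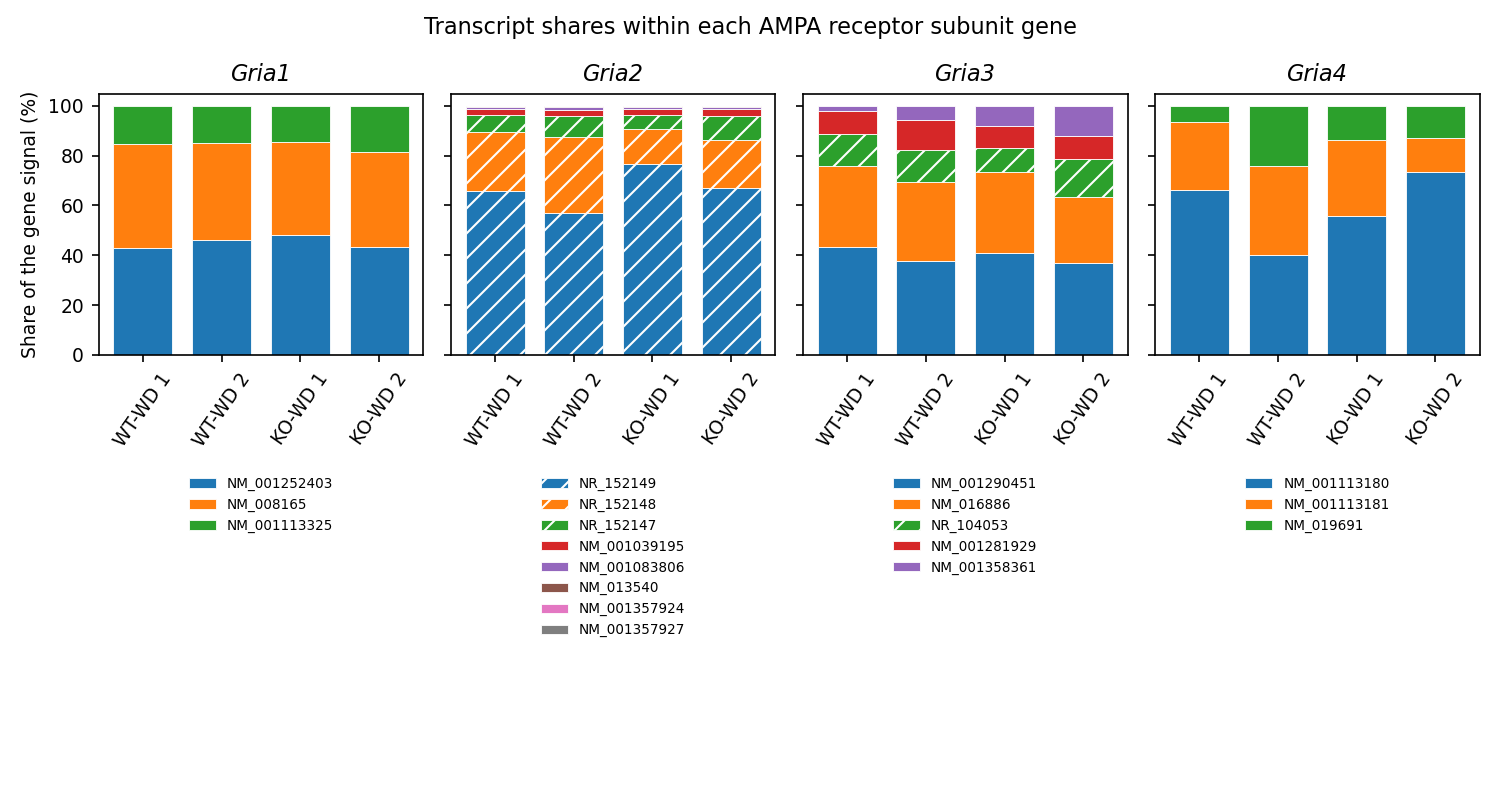
Share (%) of each deposited transcript in the signal of its subunit gene, per library, with hatching for non-coding transcripts and colours assigned within each gene. Hatched segments fill nearly all of Gria2, and the Gria4 segments differ more between the WT-WD replicates than those of Gria1.

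Over all 29 transcripts, none passed at an adjusted p under 0.05 (limma, 29293 transcripts, of which 0% passed). At an unadjusted p under 0.05, 2 passed, NM_013540 of Gria2 and NM_001358885 of Gsg1l, where 5.69% of all transcripts did. The libraries did not overlap in 11 of the 29 (37.9%), 4 with KO-WD above and 7 below, against 35% of all transcripts tested.

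**Figure D4:**
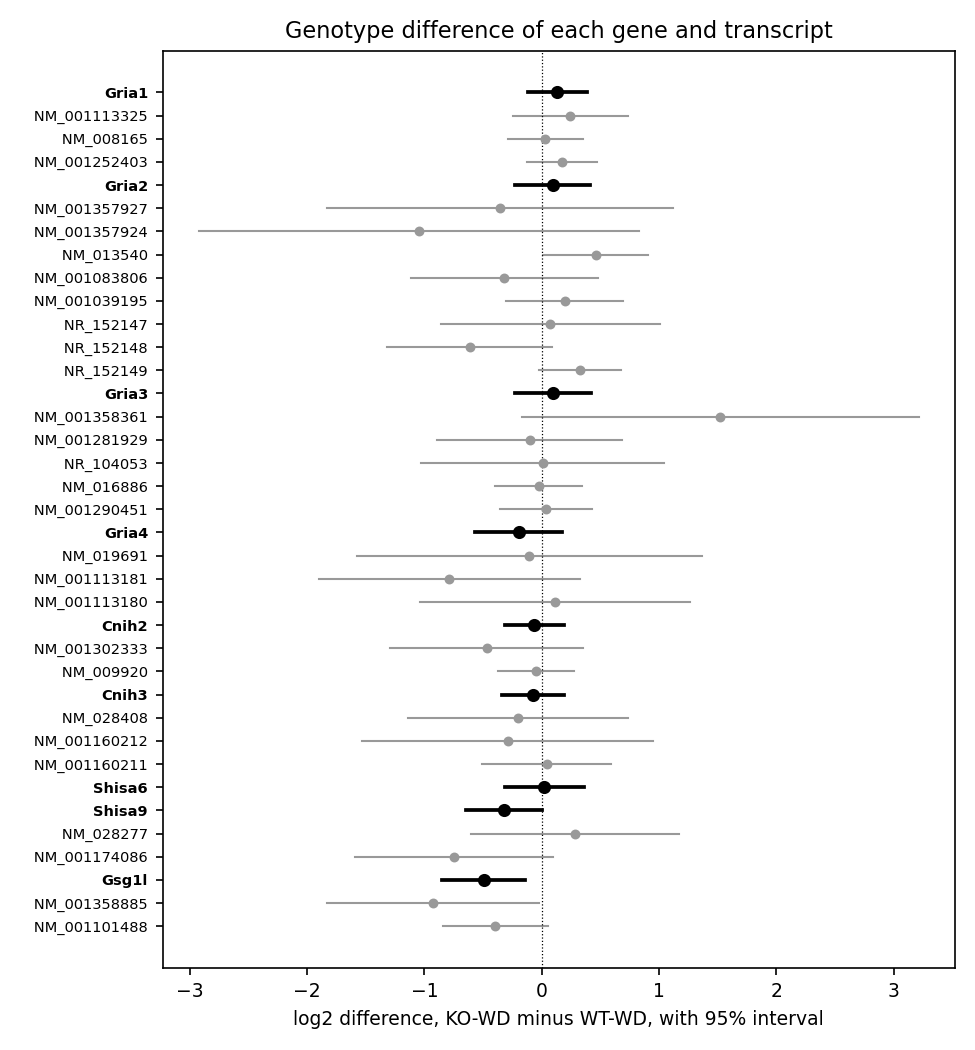
Log2 difference (KO-WD minus WT-WD) with its 95% interval from limma for each gene (black) and each of its transcripts (grey), Shisa6 having a single transcript. Intervals of genes are narrower than those of most transcripts, and Gsg1l is the only gene of the 9 whose interval, -0.85 to -0.14, does not reach 0.

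The cornichons Cnih2 and Cnih3 promote export of AMPA receptors from the endoplasmic reticulum and slow their deactivation, and Cnih2 is prominent in hippocampal pyramidal cells. Cnih2 (chromosome 19) measured 599 and 656 units in WT-WD and 585 and 616 units in KO-WD (log2 difference -0.062, SE 0.11, adjusted p = 0.958). Cnih3 (chromosome 1) measured 214 and 225 units in WT-WD and 218 and 199.9 units in KO-WD (log2 difference -0.073, SE 0.11, adjusted p = 0.952). Both overlapped between genotypes, and their intervals ran from -0.31 to 0.19 and from -0.34 to 0.19. Without WT-WD replicate 2 the Cnih2 difference was 0.0038.

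NM_009920 held 95.7% to 97.5% of Cnih2 and NM_001302333 the rest, with 25.5 and 21.8 units in WT-WD and 14.6 and 19.3 units in KO-WD. In Cnih3, NM_001160211 held 60.0% and 79.9% in WT-WD and 71.5% and 78.7% in KO-WD. NM_001160212 held 14.4% to 31.8% and NM_028408 5.70% to 8.27%, and the split differed more between the WT-WD replicates than between genotypes.

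Shisa6 and Shisa9 encode members of the CKAMP group. Shisa6 binds the postsynaptic scaffold and keeps receptors in a responsive state, and Shisa9 (CKAMP44), strong in dentate granule cells, slows recovery from desensitization. Shisa6 (chromosome 11), with the single transcript NM_001034874, measured 553 and 629.6 units in WT-WD and 532 and 676 units in KO-WD. The replicates of each genotype lay further apart than the genotype means (log2 difference 0.023, SE 0.14, adjusted p = 0.992). Its sign turned when WT-WD replicate 1 was left out (-0.070) or KO-WD replicate 2 (-0.15).

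Shisa9 (chromosome 16) measured 131 and 148 units in WT-WD and 104 and 119 units in KO-WD. Both KO-WD libraries were lower, with means of 139.7 ± 11.6 units in WT-WD and 111 ± 11.0 units in KO-WD (SD, n = 2 each). The log2 difference was -0.32, SE 0.14, adjusted p = 0.902, with an interval of -0.65 to 0.00073 and an unadjusted p of 0.0504. Of its transcripts, NM_001174086 measured 98.1 and 95.4 units in WT-WD and 42.9 and 76.3 units in KO-WD (log2 difference -0.75, SE 0.32, adjusted p = 0.883), while NM_028277 measured 33.3 and 52.4 units and 60.7 and 43.0 units and overlapped. The NM_001174086 share of the gene was 74.7% and 64.5% in WT-WD and 41.4% and 64.0% in KO-WD, replicate 1 of KO-WD standing lowest. The mean share difference of -16.9 percentage points was -5.63 without that library. The 3 dentate gyrus markers had log2 differences above 0, with sums of 458 and 482 units in WT-WD and 503 and 592 units in KO-WD, and the part of cell types in the Shisa9 values was not tested.

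Gsg1l encodes a claudin-family protein that slows recovery of AMPA receptors from desensitization and dampens their currents in hippocampal neurons. Gsg1l (chromosome 7) measured 189 and 151 units in WT-WD and 127 and 113 units in KO-WD. The KO-WD libraries held the lower values, with means of 170.0 ± 26.9 units in WT-WD and 120.0 ± 10.4 units in KO-WD (SD, n = 2 each). The log2 difference was -0.49, SE 0.15, adjusted p = 0.848, with an unadjusted p of 0.0132, so KO-WD signal was 0.711 of the WT-WD signal. It had the lowest unadjusted p of the 9 members, did not pass the adjusted test, and ranged from -0.33 to -0.65 when each library was left out in turn.

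Both Gsg1l transcripts were lower in KO-WD. NM_001101488 measured 148 and 123 units in WT-WD and 107 and 97.9 units in KO-WD (log2 difference -0.40, SE 0.17, adjusted p = 0.883). NM_001358885 measured 40.5 and 28.4 units in WT-WD and 20.6 and 14.7 units in KO-WD (log2 difference -0.93, SE 0.34, adjusted p = 0.868). The minor transcript held 21.4% and 18.8% of the gene in WT-WD and 16.2% and 13.0% in KO-WD, without overlap (two-sided exact permutation p = 0.333, the smallest possible). The marker sums of oligodendrocytes, their precursors and astrocytes given above were also lower in KO-WD, and their part in the Gsg1l values was not tested.

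Levels were set side by side per kb of coding length, over coding transcripts with a GENCODE model. Cnih2 was highest, at 1219.6 to 1367 units per kb over the 4 libraries, and Gria1 followed at 936 to 1062. Cnih3 (441 to 504), Gria2 (351 to 459.7) and Shisa6 (338 to 429) came next, where Gria2 overlapped both of the others and stood apart from neither. Gsg1l (101 to 154), Gria3 (103 to 117), Shisa9 (82.8 to 119) and Gria4 (60.2 to 88.6) were lowest, and each overlapped the next. Coding transcripts with no linked model are left out, namely NM_001358885 of Gsg1l, NM_001358361 of Gria3, and NM_001357924 and NM_001357927 of Gria2. Non-coding transcripts are left out too, and they held 95.9% to 96.4% of Gria2 signal and 9.55% to 15.1% of Gria3 signal. Per kb of whole transcript, Gria1 (454 to 516) and Cnih2 (436 to 489) overlapped, Gsg1l moved to the last place, and the order of the 4 subunits stayed the same. The linked models of Shisa6 and of NM_001290451, the largest transcript of Gria3, hold almost only coding sequence, which raises both genes on that scale.

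For each subunit, the gene with a mean of at least 100 units whose centred log2 values lay nearest over the 4 libraries was Pdpk1 for Gria1, Sptbn1 for Gria2, Setd2 for Gria3 and Mpv17l for Gria4. The root mean square distances were 0.00923, 0.00902, 0.0145 and 0.0164 on the log2 scale. Of 4670 candidate genes, 1555 lay within 0.1 of Gria1, 1324 of Gria2, 664 of Gria3 and 74 of Gria4. A gene with nearly constant signal also lies within 0.1 of a subunit that varies little, such as Gria1 or Gria2. These counts therefore do not measure how many genes share a pattern.

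A list of 51 other genes of AMPA receptor assembly, trafficking, editing and phosphorylation was followed in the same fit. All 51 were tested and 0 passed at an adjusted p under 0.05 (limma), while 1 passed at an unadjusted p under 0.05, Cacng5 (all genes tested: 0.0637% and 5.28%). Of the 51 differences, 33 were above 0 and 18 below, where over all genes tested 7863 were above and 7844 below. Their median log2 difference was 0.052, against 0.00025 over all genes, and 22 (43.1%) did not overlap, against 36.3% of all genes.

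The transmembrane AMPA receptor regulatory proteins (TARPs) are the classic auxiliaries that carry receptors to the synapse. Of 6 TARP genes, 1 was above 0 and 5 below. Cacng5, which encodes the TARP γ-5, measured 32.9 and 38.3 units in WT-WD and 75.4 and 47.7 units in KO-WD (log2 difference 0.74, SE 0.24, adjusted p = 0.886). Cacng4, encoding γ-4, measured 70.2 and 66.0 units and 51.6 and 58.3 units (log2 difference -0.31, SE 0.15, adjusted p = 0.902). Cacng8, the main hippocampal TARP γ-8, measured 256 and 247 units and 238 and 261 units and overlapped. For Cacng2, Cacng3, Cacng4 and Cacng7 both KO-WD values were the lowest, an order held by 18.4% of all genes tested.

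Of 18 further auxiliary and assembly genes, 12 were above 0 and 6 below (11 and 7 after quantile normalization). Olfm2, encoding an olfactomedin found in AMPA receptor complexes, measured 155 and 139 units in WT-WD and 127 and 112 units in KO-WD (log2 difference -0.30, SE 0.13, adjusted p = 0.902). Porcn, a palmitoleoyltransferase also found in receptor complexes, had a log2 difference of 0.23 (adjusted p = 0.902), and Nptx1, a secreted pentraxin that clusters receptors, of 0.16 (adjusted p = 0.911).

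Of 11 scaffold and trafficking genes, 7 were above 0 and 4 below. The paralogs Grip1 and Grip2, whose PDZ domains bind the tails of GluA2 and GluA3, differed in opposite directions. Grip1 measured 68.2 and 54.0 units in WT-WD and 74.6 and 73.5 units in KO-WD (log2 difference 0.28, SE 0.17, adjusted p = 0.902). Grip2 measured 61.1 and 63.6 units and 53.4 and 49.6 units (log2 difference -0.27, SE 0.15, adjusted p = 0.902). Dlg3, encoding the scaffold SAP102, had a log2 difference of 0.16 (adjusted p = 0.911).

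All 5 RNA editing and splicing genes were above 0, none past the test. Adarb1, whose product ADAR2 edits the Q/R site of Gria2, measured 433 and 386 units in WT-WD and 422 and 462 units in KO-WD and overlapped (log2 difference 0.11, SE 0.11, adjusted p = 0.929). Adarb2, encoding the editing-inactive ADAR3, measured 55.3 and 47.8 units and 68.9 and 55.4 units (log2 difference 0.26, SE 0.18, adjusted p = 0.911). Editing itself cannot be read from the deposited signal.

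Of 11 kinase and phosphatase genes, 8 were above 0 and 3 below. Camk2b, encoding the β subunit of the kinase that phosphorylates GluA1 during potentiation, measured 1968 and 2069.7 units in WT-WD and 2296 and 2373 units in KO-WD (log2 difference 0.21, SE 0.11, adjusted p = 0.902). Fyn, a tyrosine kinase of the synapse, measured 463 and 490.0 units and 452 and 413 units (log2 difference -0.14, SE 0.11, adjusted p = 0.911).

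**Figure D5:**
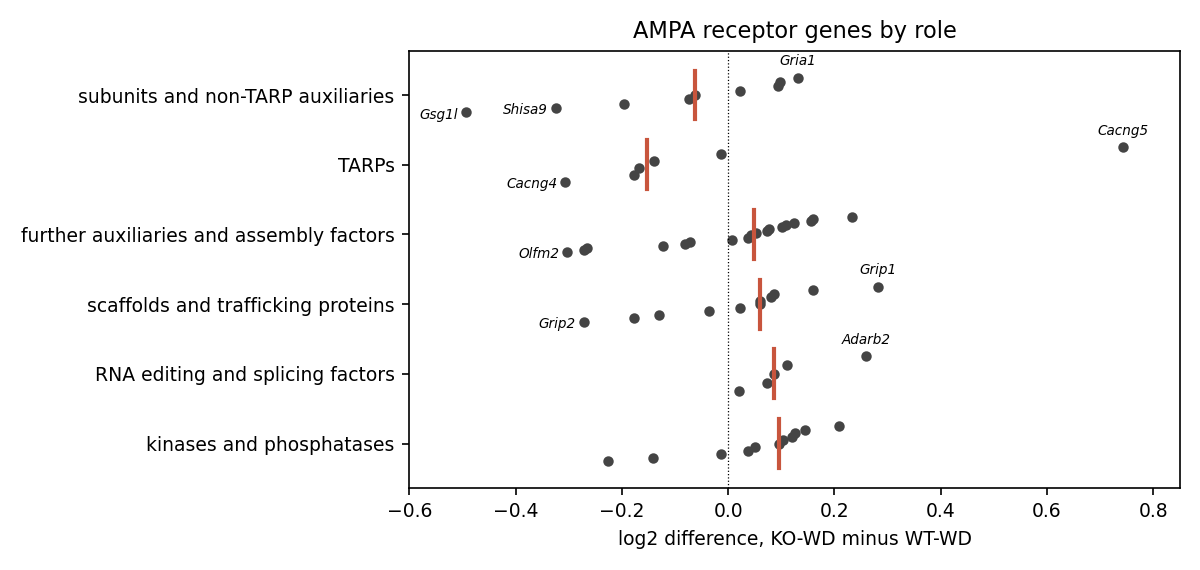
Log2 difference (KO-WD minus WT-WD) of each gene by role, 1 point per gene and a red bar at the median of each role. The TARP median is -0.15 with Cacng5 far to the right, and the other roles outside the 9 members lie around medians of 0.048 to 0.10.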

How the data were processed

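Per the labels' protocols, total RNA was isolated with RNAqueous-4PCR and libraries were made with the Ion Total RNA-Seq kit. STAR, Partek and build mm39 appear, unversioned, in the submitters' processing notes. The sources used here do not give the quantification model, the normalization or the use of strand. The authors deposited a normalized signal for each of 30108 RefSeq transcripts, scaled to nearly the same total per library and apparently with 0.0001 added, which was subtracted. Steps in the low values gave the units that 1 read is worth and so the depths, but 16.2% to 22.8% of values under 20 reads were whole multiples within 0.02 read, so no count model was used.

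Transcripts were summed by symbol from a RefSeq table of GRCm38.p6 (30073 matched, 35 did not), which was used for names and chromosomes only. Genes or transcripts reaching 1 unit in 2 or more libraries were kept. Their log2(value + 1), a scale that understates the change of low signal, entered limma 3.58.1 under R 4.3.3, with trend and robust moderation on. P-values are two-sided, adjusted by Benjamini-Hochberg over all features. Shares were compared by exact permutation over libraries. GENCODE M21 models, linked for 21 of 25 coding member transcripts and with the same version for 13, gave lengths and exons, and flip or flop was read from the encoded residues. The fit was also run on simulated counts with larger changes than those of the member genes, so that run does not bear on its power for them.

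All members and their transcripts are named, as are 2 to 4 genes per role with the smallest unadjusted p and the nearest gene of each subunit. Cacng3, Cacng8, Prox1, Tcf7l2, Adora2a and Nptxr were named outside that rule after their values were seen. The members and lists were chosen with earlier results of these data known. Alternatives were quantile and median-ratio scaling, other filters (none, 5 units) and pseudocounts (0.1, 0.5), no trend or robust moderation, a replicate block, coding transcripts alone, leaving out each library and, added after seeing the data, division by coding length.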

Additional observations from a re-analysis of the deposited data

How the results depend on the processing

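No member gene, member transcript or other pathway gene passed at an adjusted p under 0.05 under any alternative run, and the lowest adjusted p of a member was 0.346, for Gsg1l without KO-WD replicate 1. The count over all genes, 10, was 0 without trend or robust moderation, 1 with coding transcripts alone and 18 to 93 leaving out a library. Same-numbered libraries did not deviate together (correlation 0.0378), and with the replicate block 47 of all genes passed and no member. Leaving out each library gave log2 differences of -0.010 to 0.20 for Gria2, -0.079 to 0.27 for Gria3, -0.40 to 0.011 for Gria4, -0.13 to 0.0038 for Cnih2 and -0.15 to 0.19 for Shisa6, so their direction rests on single libraries. The share difference with a library left out ran from -0.126 to 0.547 percentage points for Gria1 and from -0.406 to 0.189 for Gria2. It ran from -0.0622 to 0.0656 for Gria3 and from -0.175 to -0.0325 for Gria4. Over coding transcripts alone the differences of Gria1, Gria2, Gria3 and Gria4 were 1.21, -0.417, 0.00122 and -0.794. Per coding length they were 1.66, 0.151, -0.500 and -1.31, and per transcript length 2.90, -1.02, -0.468 and -1.42. Part of the Gria3 coding signal has no length, more of it in KO-WD than in WT-WD. Isoform share differences ran from -1.19 to 3.90 points for NM_001252403, -4.42 to 1.03 for NM_001290451, -1.60 to 24.5 for NM_001113180 and -4.80 to 15.2 for NM_001160211. The cause of these changes was not tested. Of 244 alternative values 19 changed sign. The 244 include counts of passing features, which cannot change sign. Other filters, the moderation setting and the replicate block also leave a log2 difference as it was. The number of changed signs is therefore not a measure of stability. Depth limits the low transcripts most, down to 24.1 estimated reads, and reads are not known to be independent molecules.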

Other observations

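Nptxr, the neuronal pentraxin receptor that recruits AMPA receptors to synapses, had the largest standard error of the 51 other pathway genes. It measured 1043 and 1287 units in WT-WD and 688 and 1348 units in KO-WD, so the KO-WD libraries spanned the WT-WD ones (limma log2 difference -0.27, SE 0.41, adjusted p = 0.957).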
